A study of Homo sapiens with 90 samples.

Results

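The nuclear receptors are a family of transcription factors, many of which are switched on by hormones, lipids or drugs. From a list of 45 members of the family, 38 were measured by a probe set that the annotation assigns to a single gene symbol, out of 19774 genes measured in this way, and the other 7 were not analysed here. These were NR1I2 (the drug receptor PXR), NR1H4 (the bile acid receptor FXR), NR1H2 (LXR beta), HNF4A, NR0B1, NR2F2 and NR1D1. NR1D1, which encodes the clock repressor REV-ERB alpha, was left out because it was represented only by probe sets shared with THRA. Where a gene had several such probe sets, the brightest on average across the 90 columns stood for it.

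The cells were HepG2, a human liver tumour line of hepatocyte character, and each group of samples came from this single line. All cells were left for 24 h to attach and then received 0.2% DMSO for 24 h, alone in the controls or together with fenbuconazole (a triazole fungicide), imazalil (an imidazole fungicide) or 2,4-D (a phenoxyacetic acid herbicide). There were 9 doses of each compound, from 0.001 to 10 µM in steps of about 3-fold, with 3 arrays per dose and 18000 cells plated per well. The same 3 DMSO arrays served all compounds and were normalised anew with each compound's 27 treated arrays, so every comparison with DMSO shares its controls with the other compounds.

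Most nuclear receptors bind DNA through a zinc finger domain, and many pair with a retinoid X receptor on a repeat of a short half-site. In the liver, members of the family sense bile acids, oxysterols, fatty acids, retinoids, steroid and thyroid hormones and foreign compounds, and they set the level of enzymes and transporters that handle them. A receptor is often activated by ligand without a change in its own mRNA, and an array reads only the mRNA. In these bulk samples, fewer cells with a transcript and less transcript per cell cannot be told apart.

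The DMSO arrays were those of liver cells by their markers. All 10 measured hepatocyte markers were above the median gene of the array, with a median of 8.64 log2 units above it in the fenbuconazole set, whereas 0 of 7 blood and endothelial markers were above it in any set. Of 8 mesenchymal markers, 2, 2 and 1 were above the median in the fenbuconazole, imazalil and 2,4-D sets, the highest being ACTA2 at 4.26, 4.14 and 4.16. Of 24 genes of tissues other than liver, 23 lay below the array median, the highest of them LHB at -0.22 in the fenbuconazole set, and the exception was KRT10 at 5.65. Whether the numbered replicates were separate cultures was not stated in the labels, so the p values measure the spread between these samples, which may be technical.

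The resting level of the family was described first, in DMSO cells. Levels are given as log2 intensity minus the median of all genes on the same array, in the fenbuconazole set unless stated. Probe sets differ in how strongly they respond, so the levels are not ordered between genes and were not tested. In each of the 3 sets, 19 of 38 members lay above the array median and 19 below it by the probe set used. In the fenbuconazole set the 19 members above the median were also those above LHB. Each level is that of the brightest probe set, and dimmer ones could lie on the other side of the median. There the second probe set read -0.56 for HNF4G and -0.02 for NR1D2, and the brightest other one -0.10 for RORA. For NR2F1, NR2F6 and ESRRA the second probe set stayed above the median, at 2.21, 1.04 and 0.87. Members whose probe sets disagreed in this way were not counted.

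**Figure D1:**
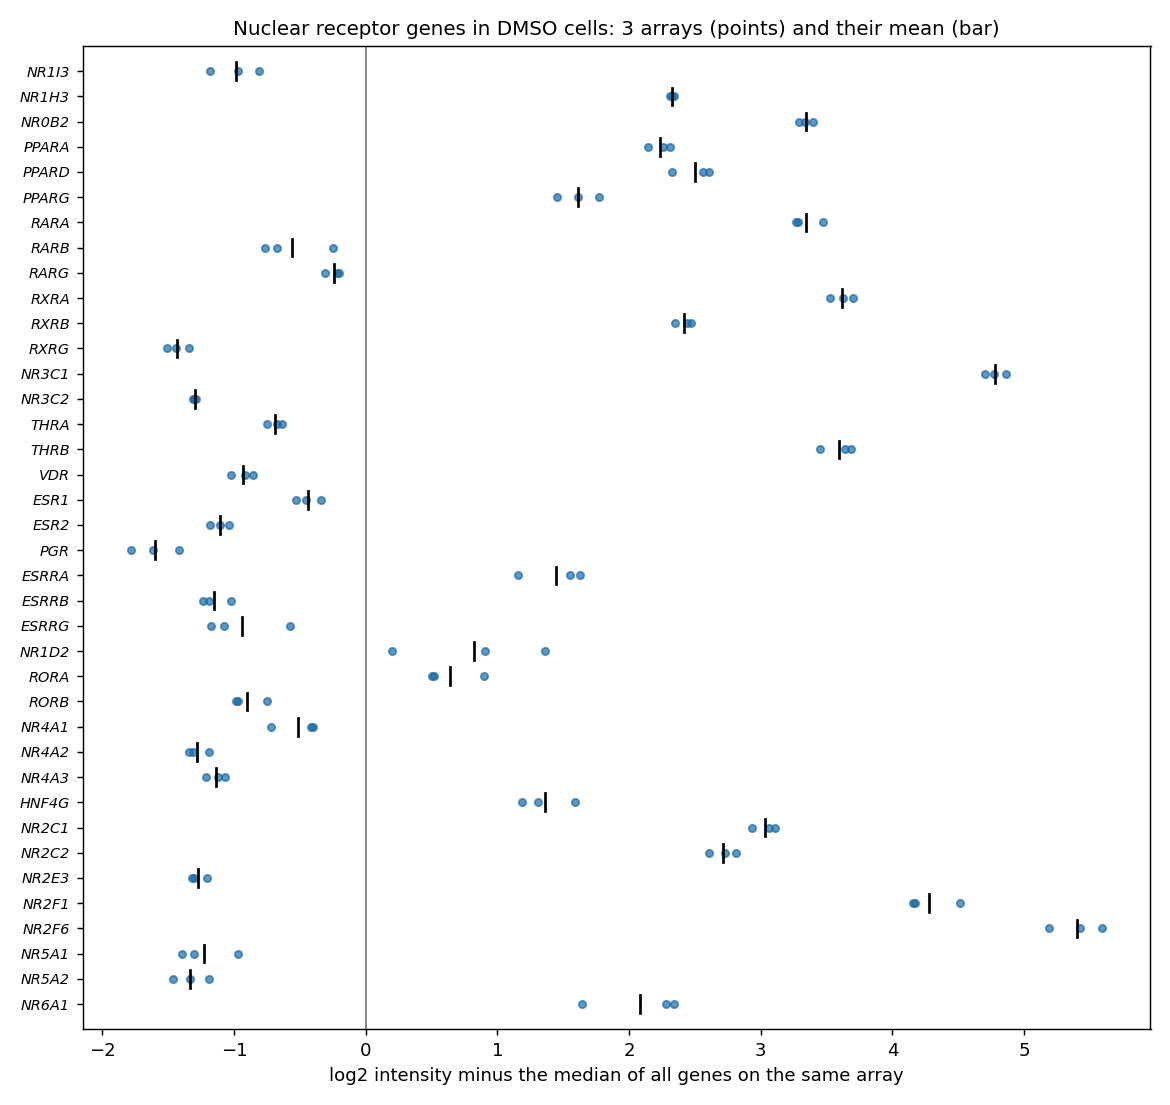
Level of the 38 measured nuclear receptor genes in DMSO cells of the fenbuconazole set, as log2 intensity minus the median of all genes of the array, with 3 arrays as points and their mean as a bar. In all, 19 members lie above 0, and NR1D2 has the widest scatter, from 0.20 to 1.36.

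Of the receptors for drugs, sterols and bile acids only 3 were analysed, since PXR and FXR were among those left out. NR1H3 and NR0B2 were above the array median and NR1I3 was below it. NR1H3, the oxysterol receptor LXR alpha, read 2.32, 2.31 and 2.34 on the 3 DMSO arrays. NR0B2, the small heterodimer partner that represses bile acid synthesis, read 3.34, 3.40 and 3.29. NR1I3, the constitutive androstane receptor CAR, read -0.97, -1.18 and -0.81, below the mean of LHB (-0.22) and in the range of genes of other tissues.

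All 3 receptors for fatty acids were above the median. PPARA, which drives fatty acid oxidation, had a mean of 2.24 ± 0.09 (SD, n = 3), PPARD 2.50 ± 0.15 and PPARG, the adipogenic member, 1.61 ± 0.16. Of the retinoid receptors, RARA (3.34 ± 0.12), RXRA (3.62 ± 0.09) and RXRB (2.42 ± 0.06) were above the median. RARB (-0.56), RARG (-0.24) and RXRG (-1.43) were below it.

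Of 8 hormone receptors, 2 were above the median. These were NR3C1, the glucocorticoid receptor, at 4.70, 4.77 and 4.86, and THRB, the thyroid hormone receptor of liver, at 3.69, 3.45 and 3.64. The mineralocorticoid receptor NR3C2 (-1.30), the vitamin D receptor VDR (-0.93), THRA (-0.69), the oestrogen receptors ESR1 (-0.44) and ESR2 (-1.11) and the progesterone receptor PGR (-1.60) were below it on every array. Among the oestrogen-related receptors, ESRRA, which acts on mitochondrial genes, was above the median at 1.44 ± 0.25, and ESRRB (-1.15) and ESRRG (-0.94) were below it.

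The clock receptors NR1D2 (REV-ERB beta, 0.82 ± 0.58) and RORA (0.64 ± 0.22) were above the median and RORB (-0.90 ± 0.13) was below it. The NR4A receptors, which are immediate early genes, were all below it, with means of -0.51 for NR4A1, -1.28 for NR4A2 and -1.13 for NR4A3. Of 9 other orphan receptors, 6 were above the median, namely NR2F6 (5.40 ± 0.20), NR2F1 (4.28 ± 0.20), NR2C1 (3.03 ± 0.09), NR2C2 (2.72 ± 0.10), NR6A1 (2.09 ± 0.39) and HNF4G (1.36 ± 0.20). The other 3, NR2E3, NR5A1 (steroidogenic factor 1) and NR5A2, lay between -1.33 and -1.23.

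Promoters, taken as the 250 bases before a RefSeq start site in GRCh38.p14, were available for 33 of the 38 members, and the entry listed first was used where a gene had several. HNF4G, NR0B2, NR2F6, NR4A2 and VDR were not included. The 16 members above the array median had a median of 16.5 CpG dinucleotides in this window, and the 17 below it had 10, against 11 over all 27305 promoters. The ranges overlapped (1 to 59 and 0 to 39), and no test was made. The half-site AGGTCA, searched on both strands, occurred in 5 of 33 member promoters (15.2%) and in 12.1% of all promoters.

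The sequences below show both features, with the half-site in capitals for PPARG, RARA and NR5A2 and each CpG in capitals for RXRA. PPARG is shown because it was the only member with 2 half-sites, and RARA as a bright member with 1. NR5A2 is shown as the member with 0 CpG (and 1 half-site) and RXRA as the member with the most, 59. These members were picked after the counts were seen. A match is a run of letters and was not tested for binding.
PPARG, chr3:12287118-12287367, plus strand: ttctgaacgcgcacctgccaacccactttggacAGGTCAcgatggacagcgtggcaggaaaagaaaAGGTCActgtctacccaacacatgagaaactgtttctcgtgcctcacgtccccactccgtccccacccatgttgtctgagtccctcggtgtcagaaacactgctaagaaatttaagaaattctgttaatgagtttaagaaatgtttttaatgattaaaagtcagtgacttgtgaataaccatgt
RARA, chr17:40308930-40309179, plus strand: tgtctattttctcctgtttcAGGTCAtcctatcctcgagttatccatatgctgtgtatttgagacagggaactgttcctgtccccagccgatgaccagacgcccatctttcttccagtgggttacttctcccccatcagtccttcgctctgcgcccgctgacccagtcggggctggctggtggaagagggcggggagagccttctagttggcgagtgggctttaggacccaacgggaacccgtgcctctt
NR5A2, chr1:200027460-200027709, plus strand: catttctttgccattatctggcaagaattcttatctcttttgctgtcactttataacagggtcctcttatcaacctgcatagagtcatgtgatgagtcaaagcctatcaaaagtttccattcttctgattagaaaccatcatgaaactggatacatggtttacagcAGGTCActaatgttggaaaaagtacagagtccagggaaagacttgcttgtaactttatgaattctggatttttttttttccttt
RXRA, chr9:134326205-134326454, plus strand: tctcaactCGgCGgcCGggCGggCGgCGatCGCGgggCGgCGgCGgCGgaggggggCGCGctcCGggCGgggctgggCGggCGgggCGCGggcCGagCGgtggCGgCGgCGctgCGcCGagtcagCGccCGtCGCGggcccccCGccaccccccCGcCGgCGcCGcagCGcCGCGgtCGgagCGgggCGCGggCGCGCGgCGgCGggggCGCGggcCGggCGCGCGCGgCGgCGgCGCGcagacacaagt

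The next question was whether any compound changed the mRNA of the receptors. At 10 µM, the highest dose, no member passed an adjusted p of 0.05 with any compound (limma, Benjamini-Hochberg over all genes). Over all genes, 3 passed with fenbuconazole (0.0152%), 21 with imazalil (0.106%) and 0 with 2,4-D (0%). At an unadjusted p under 0.05, 3, 3 and 0 of 38 members were found, against 4.74%, 5.97% and 3.96% of all genes. The count with imazalil turned on single arrays, at 9 without DMSO replicate 1 and 1 without DMSO replicate 2. It was 7 without replicate 1 and 1 without replicate 3, in fits that left out 1 array of every group.

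The median log2 change of the members at 10 µM was 0.02 with fenbuconazole, 0.03 with imazalil and 0.01 with 2,4-D, where that of all genes was -0.00089, -0.0043 and 0.00077. The count of members above 0 was 20, 27 and 20 of 38, against 49.7%, 48.6% and 50.3% of all genes. A change of 1.5-fold in either direction lay outside the 95% interval for 35, 34 and 37 of 38 members, that is for 17, 16 and 18 of the 19 above the array median in DMSO cells and for 18, 18 and 19 of the 19 below it. A probe set near background responds little to its mRNA, so for the members below the median the interval bounds the reading and not the change of the mRNA. The intervals that reached 1.5-fold were those of RARG, NR1D2 and NR2F1 with fenbuconazole, of ESRRA, NR1D2, NR4A1 and HNF4G with imazalil and of NR6A1 with 2,4-D.

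**Figure D2:**
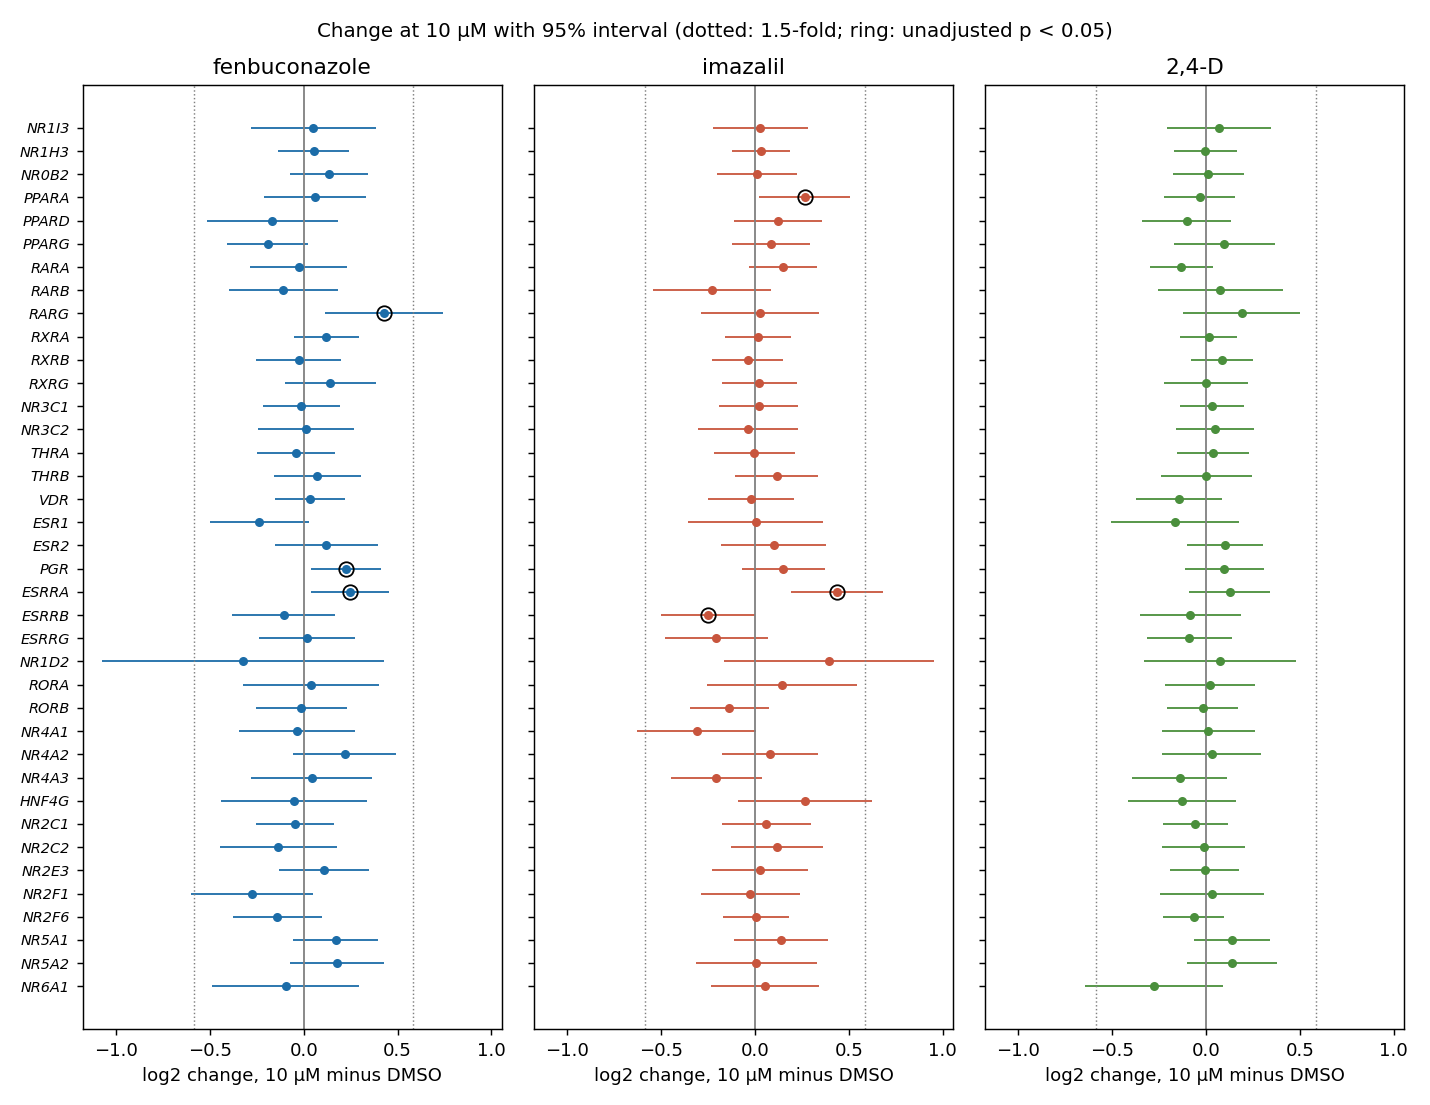
Log2 change of each member at 10 µM against DMSO, with the 95% limma interval, for fenbuconazole, imazalil and 2,4-D (n = 3 arrays per group). Dotted lines mark 1.5-fold and rings mark an unadjusted p under 0.05. The points lie between -0.32 (NR1D2, fenbuconazole) and 0.44 (ESRRA, imazalil), and no member passed the adjusted threshold.

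The member with the smallest p value at 10 µM was ESRRA with imazalil. ESRRA read 5.48, 5.05 and 5.42 in DMSO cells and 5.67, 5.55 and 6.04 at 10 µM, so the treated arrays were all above the controls. The log2 change was 0.44 ± 0.12 (SE; unadjusted p = 0.00112, adjusted p = 0.356, limma), or 1.35-fold with a 95% interval of 1.14 to 1.60. Against the 9 arrays of the 3 lowest imazalil doses the change was 0.26 ± 0.10 (adjusted p = 0.527).

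The probe sets of ESRRA disagreed on this change. The second, dimmer probe set gave -0.06 with imazalil at 10 µM. With fenbuconazole both pointed the same way, at 0.25 and 0.27. In the fenbuconazole set ESRRA read 5.54, 5.11 and 5.47 in DMSO cells and 5.66, 5.57 and 5.62 at 10 µM, and in both sets the DMSO array of replicate 2 was the lowest of the controls. The value with 2,4-D was 0.13 ± 0.10 (adjusted p = 1).

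PPARA with imazalil read 6.15, 6.02 and 6.14 in DMSO cells and 6.52, 6.17 and 6.40 at 10 µM. All treated arrays were above the controls, by a mean of 0.26 ± 0.12 (adjusted p = 0.799). Among its other 7 probe sets the value ranged from -0.14 to 0.27. ESRRB with imazalil read 2.82, 3.02 and 2.83 in DMSO cells and 2.73, 2.71 and 2.47 at 10 µM, a difference of -0.25 ± 0.12 (adjusted p = 0.836) in a gene at the level of genes of other tissues.

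RARG, the retinoic acid receptor of epithelia, gave the largest value with fenbuconazole. It read 3.71, 3.73 and 3.61 in DMSO cells and 4.08, 4.12 and 4.13 at 10 µM. The treated arrays lay apart from the controls, by 0.43 ± 0.15 (unadjusted p = 0.00946, adjusted p = 0.935), but the other probe sets of RARG gave -0.11 and -0.18. With 2,4-D, RARG arrays were also above the controls, by 0.19 ± 0.15 (adjusted p = 1), and with imazalil the value was 0.03.

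PGR with fenbuconazole read 2.50, 2.33 and 2.14 in DMSO cells and 2.61, 2.52 and 2.50 at 10 µM, a difference of 0.23 ± 0.09 (adjusted p = 0.999). Its second probe set gave -0.03. Both probe sets of PGR were below the array median, at -1.60 and -1.58 relative to the array median.

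Groups of arrays that did not overlap at 10 µM were found for 4 members with fenbuconazole (3 above and 1 below DMSO), 6 with imazalil (3 and 3) and 2 with 2,4-D (2 and 0). Over all genes the share was 9.05%, 12.7% and 6.75%, so the members' counts were near the background. The members above were RARG, PGR and ESRRA with fenbuconazole, PPARA, RARA and ESRRA with imazalil, and RARG and ESR2 with 2,4-D. Those below were ESR1 with fenbuconazole and ESRRB, NR4A1 and NR4A3 with imazalil.

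Of the receptors that sense foreign compounds, sterols and bile acids, PXR and FXR were not analysed here, and the values of the other 3 at 10 µM were as follows. The log2 values of NR1I3 were 0.05, 0.03 and 0.07 with fenbuconazole, imazalil and 2,4-D, those of NR1H3 0.05, 0.03 and -0.0040, and those of NR0B2 0.13, 0.01 and 0.01. For NR1H3 and NR0B2 every 95% interval excluded a 1.5-fold change. The intervals of NR1I3 did so too, but its probe set read at the level of genes of other tissues, where the interval does not bound a change of the mRNA. RXRA, the partner of many members, gave 0.12, 0.02 and 0.01, and NR3C1 gave -0.01, 0.02 and 0.03.

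By role, imazalil gave positive values for 8 of 9 other orphan receptors and for all 3 fatty acid receptors, and negative values for 2 of 3 NR4A genes. With fenbuconazole the same roles had 3 of 9, 1 of 3 and 1 of 3 in those directions. Since no member passed the test, these counts are a description of signs.

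Across the lower doses the picture was the same. Over the 9 doses and 3 compounds, 0 of 1026 tests of members against DMSO passed the adjusted threshold (limma), against 0.00468% of all gene tests, and 37 (3.61%) had an unadjusted p under 0.05, against 3.78% over all genes. The most negative log2 change of any member with imazalil was that of NR4A1, an orphan receptor induced early by many stimuli, at 0.001 µM, the lowest dose. NR4A1 read 3.73, 3.68 and 3.80 in DMSO cells and 3.32, 3.13 and 3.14 at this dose. The groups did not overlap, with a difference of -0.54 ± 0.15 (unadjusted p = 0.00174, adjusted p = 1), and -0.13 with the mean of its probe sets. At 0.001 µM the value was -0.35 with 2,4-D and 0.04 with fenbuconazole, and at 10 µM it was -0.31 with imazalil and 0.01 with 2,4-D, so the value at the lowest dose was larger than at the highest.

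The F test over all doses called 0 members with each compound, and at an unadjusted p under 0.05 it found NR2E3 with fenbuconazole, NR4A1 and VDR with imazalil and NR1D2 and NR4A1 with 2,4-D. It called 2 (0.0101%), 7 (0.0354%) and 0 (0%) of all genes, and 3.52%, 4.63% and 5.27% had an unadjusted p under 0.05. Against the 3 lowest doses, 10 µM gave 6, 3 and 2 members at an unadjusted p under 0.05 and 0 past the adjusted threshold, where 0.0607%, 0.228% and 0% of all genes passed it and 5.48%, 7.32% and 4.33% had an unadjusted p under 0.05. NR5A1 had the smallest p value in this comparison with fenbuconazole (0.26 ± 0.09, adjusted p = 0.652).

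A graded change was sought in the 27 treated arrays alone, as the slope of log2 intensity per 10-fold rise in dose, which does not use the DMSO arrays. No member passed the adjusted threshold (limma), and 2, 2 and 3 had an unadjusted p under 0.05 with fenbuconazole, imazalil and 2,4-D. Over all genes 3 (0.0152%), 27 (0.137%) and 0 (0%) passed it, and 6.01%, 7.36% and 4.56% had an unadjusted p under 0.05.

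NR5A1 had the smallest p value of any member slope. With fenbuconazole it read 2.78, 2.50 and 2.64 at 0.001 µM and 2.98, 2.91 and 2.72 at 10 µM, so the lowest and the highest dose overlapped. Its slope was 0.07 ± 0.02 (unadjusted p = 0.00106, adjusted p = 0.42). The slope was 0.05 ± 0.02 with 2,4-D (adjusted p = 1) and 0.03 ± 0.02 with imazalil (adjusted p = 0.838). NR5A1 was read by a single probe set at -1.23 relative to the array median, within the range of genes of other tissues.

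The other slopes with the smallest p values were also small. With fenbuconazole, VDR gave 0.04 ± 0.02 (adjusted p = 0.739) and RXRA 0.03 ± 0.01 (adjusted p = 0.864). With imazalil, NR2F1 (COUP-TF1) gave -0.06 ± 0.02 (adjusted p = 0.54), RORB -0.04 ± 0.02 (adjusted p = 0.636) and ESRRA 0.04 ± 0.02 (adjusted p = 0.752). With 2,4-D, RORB gave -0.04 ± 0.02 and PPARG 0.06 ± 0.03, each with an adjusted p of 1.

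**Figure D3:**
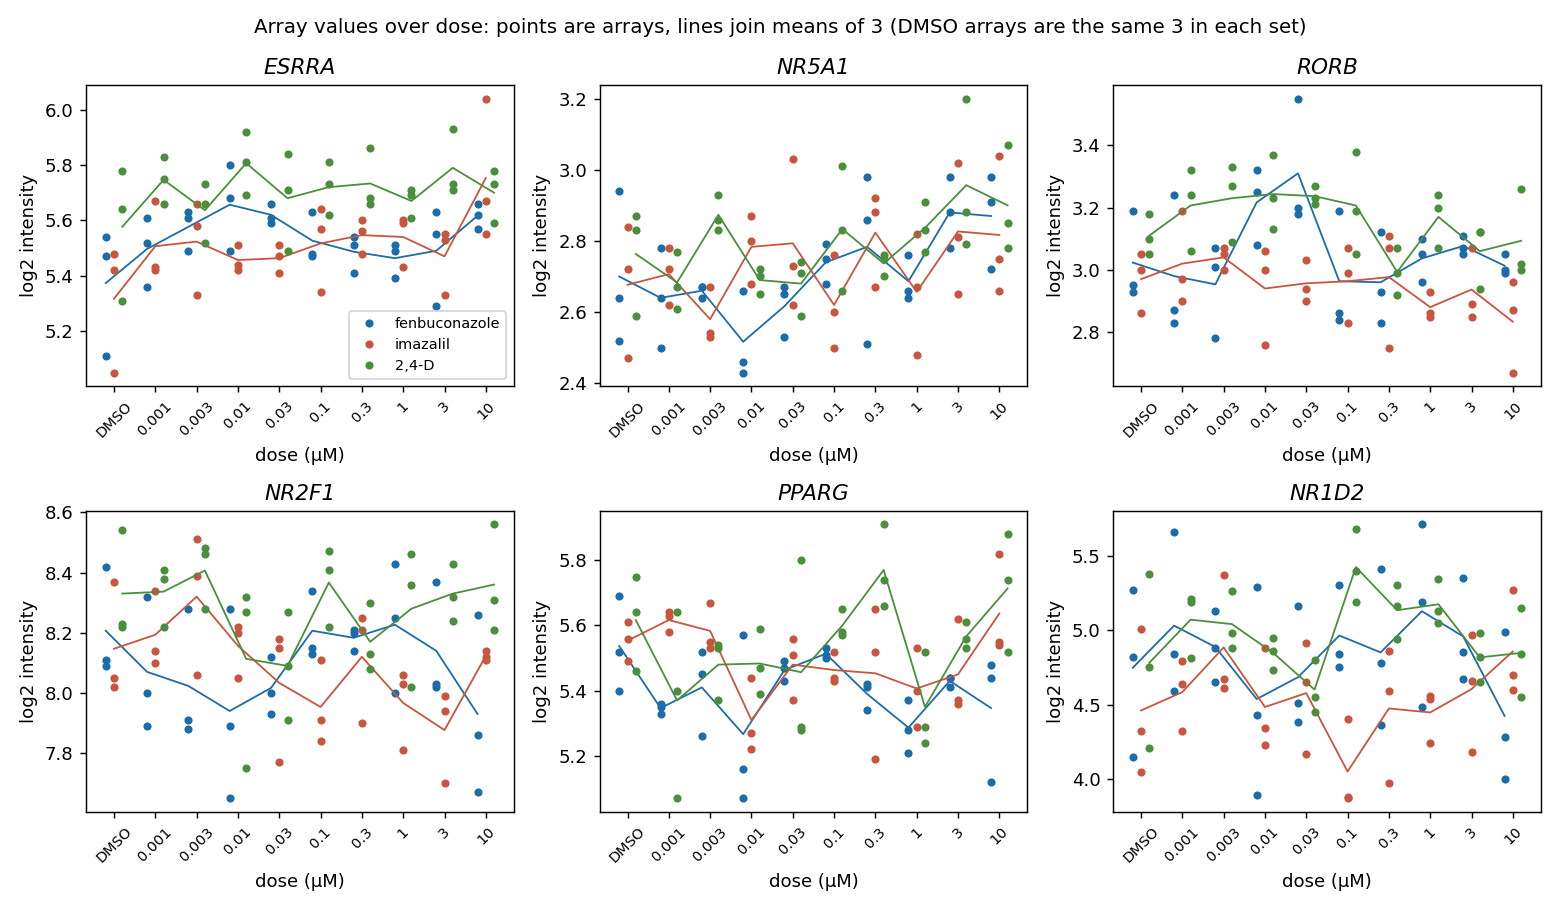
Log2 intensity of ESRRA, NR5A1, RORB, NR2F1, PPARG and NR1D2 in DMSO and at each dose in µM, with arrays as points and lines joining the means of 3 arrays, coloured by compound. Imazalil ESRRA at 10 µM stands above DMSO (5.55 to 6.04 against 5.05 to 5.48), and NR1D2 scatters between 3.87 and 5.71. Sets were normalised separately, so heights are compared within a colour only.

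The compounds were then compared with each other at 10 µM after each set was centred on its own copies of the DMSO arrays, in 3 pairs. No member passed the adjusted threshold in any pair (limma). Over all genes 8 (0.0405%) passed between imazalil and fenbuconazole, 18 (0.091%) between fenbuconazole and 2,4-D and 50 (0.253%) between imazalil and 2,4-D. At an unadjusted p under 0.05 there were 3, 2 and 7 members, against 9.89%, 6.87% and 9% of all genes.

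The fungicides, a triazole and an imidazole that also differ in the rest of the molecule, gave PPARG 0.28 ± 0.10 higher with imazalil than with fenbuconazole (95% interval 0.07 to 0.49, adjusted p = 0.377). RARG was lower on the probe set used (difference -0.40 ± 0.16, interval -0.73 to -0.07, adjusted p = 0.413), but the difference was 0.0096 with the mean of its probe sets. NR1D2 differed by 0.72 ± 0.33 (interval 0.06 to 1.38, adjusted p = 0.467). The spread of the array moved with the last of these, since the interquartile range of all genes was 4.50, 4.56 and 4.54 on the imazalil arrays at 10 µM and 4.50, 4.42 and 4.42 on the fenbuconazole arrays. With this range as a covariate the NR1D2 difference was 0.23 (adjusted p = 0.95), and what underlies it was not tested. For 33 of 38 members the interval of this difference excluded 1.5-fold in both directions, 16 of the 19 above the array median and 17 of the 19 below it, where the same limit holds. The exceptions were PPARD, RARG, NR1D2, NR4A1 and HNF4G.

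Between imazalil and 2,4-D, RARA had the smallest p value at 10 µM. With imazalil RARA read 7.25, 7.13 and 7.0 in DMSO cells and 7.27, 7.28 and 7.27 at 10 µM. With 2,4-D it read 7.30, 7.23 and 7.07 in DMSO cells and 6.99, 7.06 and 7.15 at 10 µM. The imazalil arrays were above their controls and the 2,4-D arrays overlapped theirs, with a difference of 0.28 ± 0.08 (interval 0.12 to 0.44, unadjusted p = 0.00124, adjusted p = 0.182). The other members at an unadjusted p under 0.05 in this pair were ESRRA (0.31), PPARA (0.30), HNF4G (0.40), NR6A1 (0.33), NR4A1 (-0.32) and RARB (-0.31). Between fenbuconazole and 2,4-D they were PPARG (-0.29) and NR2F1 (-0.31). HNF4G and NR2F1 also followed the range of the array, as described below, and with it as a covariate these differences were 0.33 and -0.13.

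Over all 9 doses, the smallest adjusted p value of any member between compounds belonged to NR1D2, in imazalil against 2,4-D at 0.1 µM, a dose chosen here after its value was seen. With imazalil NR1D2 read 4.40, 3.88 and 3.87 at this dose and 5.01, 4.05 and 4.32 in DMSO cells. With 2,4-D it read 5.68, 5.19 and 5.40 at this dose and 5.38, 4.21 and 4.75 in DMSO cells. The treated arrays were low in the first set and high in the second, though both overlapped their controls, and the difference was -1.06 ± 0.22 (unadjusted p = 2.1e-05, adjusted p = 0.0641). With the replicate number as a block the adjusted p was 0.0412. The labels carry a plate code equal to this number, the meaning of which they do not state. At this dose 17.5% of all genes had an unadjusted p under 0.05 in this pair and 0.00506% passed the adjusted threshold. The spread of the whole array moved with it, since the interquartile range of all genes was 4.49, 4.29 and 4.41 on these imazalil arrays and 4.60, 4.56 and 4.57 on the 2,4-D arrays. With this spread as a covariate the difference was -0.35 (adjusted p = 0.908). The ranges of these groups did not overlap, so spread and compound cannot be told apart at this dose.

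NR1D2 was the most variable member across arrays. Its SD over the 30 arrays of a set was 0.47, 0.38 and 0.32 in the fenbuconazole, imazalil and 2,4-D sets, where the median gene had 0.15, 0.14 and 0.13, which placed it at percentile 99.97, 99.94 and 99.85 of all genes. Its values ran from 3.89 to 5.71, from 3.87 to 5.37 and from 4.21 to 5.68. Within groups its SD was 0.50, 0.37 and 0.27, and the DMSO arrays of the fenbuconazole set, for example, read 5.27, 4.15 and 4.82.

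NR1D2 followed the interquartile range of the array. Pearson's r over the 30 arrays of a set was 0.851 in the fenbuconazole set, 0.793 in the imazalil set and 0.814 in the 2,4-D set, and Spearman's rho was 0.832, 0.822 and 0.811 (permutation p = 1e-05 for each r, the smallest that 100000 resamples can give, and adjusted p = 0.000104 over 114 relations). For rho the permutation p was 1e-05, 1e-05 and 2e-05. Without the 2 arrays farthest from the median range, r was 0.838, 0.782 and 0.811. Within a replicate number (n = 10 arrays) it lay between 0.69 and 0.929. The DMSO arrays are common to the 3 sets, so the sets are not wholly independent.

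**Figure D4:**
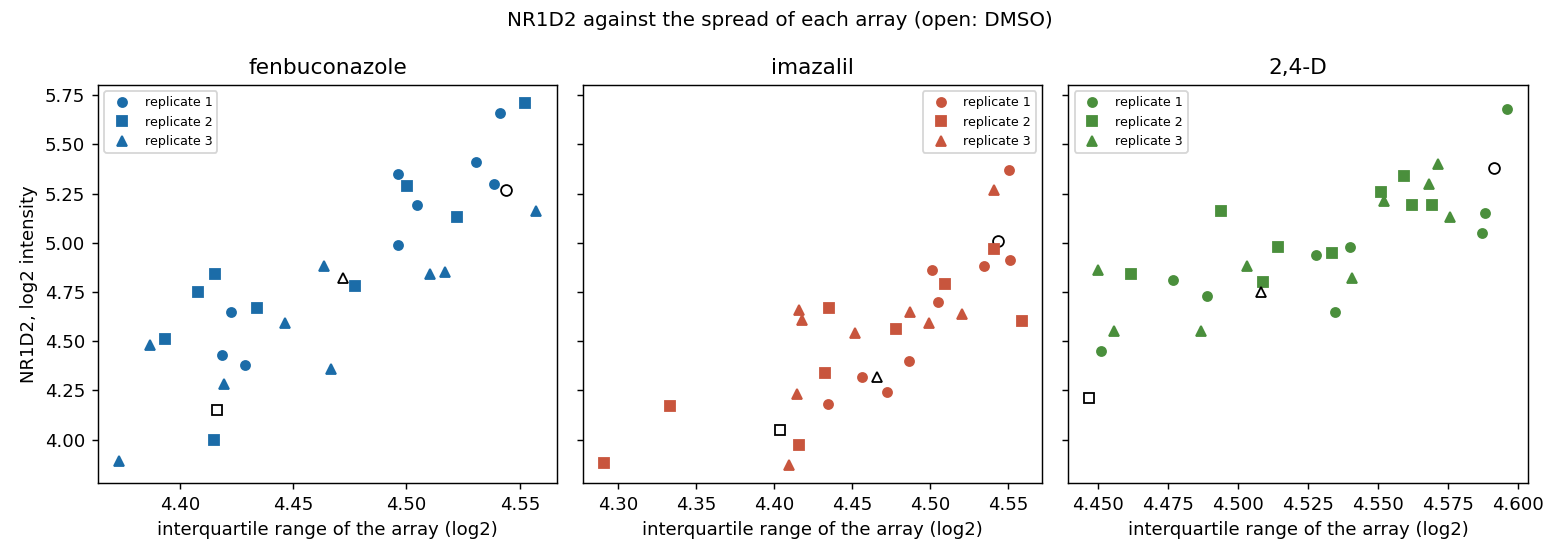
Log2 intensity of NR1D2 on each array against the interquartile range of all genes on that array (log2), by compound set, with marker shape for the replicate number and open markers for DMSO. NR1D2 rises with the range in each set (r = 0.851, 0.793 and 0.814, n = 30 arrays each).

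Of all genes, 0.865%, 1.85% and 1.72% had an r with the array range as high as that of NR1D2. At an adjusted permutation p under 0.05, 8, 14 and 11 of 38 members were related to the range, 7, 10 and 6 with r above 0 and 1, 4 and 5 with r below 0. An r as far from 0 as that of the weakest of these members was found for 21%, 25.7% and 22.2% of all genes. RXRG, for example, had r = -0.626 and -0.614 in the fenbuconazole and 2,4-D sets and -0.137 in the imazalil set. The relation held for 6 members in all 3 sets at an adjusted permutation p under 0.05, all with r above 0, namely NR1D2, HNF4G, NR2F1, NR2C2, PPARD and THRB. The share of all genes that held it in all 3 sets was not counted, so this count is not read as a trait of the family. For HNF4G r was 0.731, 0.759 and 0.833, and for PPARD it was 0.828, 0.541 and 0.76 (adjusted permutation p of at most 0.0109). No member had r below 0 with an adjusted p under 0.05 in all 3 sets. The second probe set of NR1D2 followed the range less closely (r = 0.42, 0.401 and 0.381, adjusted permutation p = 0.0341, 0.0341 and 0.0375 over 6 relations). Its rho was 0.43, 0.376 and 0.309, which did not pass the adjustment (adjusted permutation p = 0.0556, 0.0675 and 0.0974). In the 2,4-D set its r fell to 0.215 without the 2 farthest arrays, so there it rests on those arrays. Within a replicate number its r lay between -0.0404 and 0.694. What sets the array range was not tested.

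Among 14 clock genes, NFIL3 and CRY1 were related to NR1D2 in all 3 sets. The share of all genes related to NR1D2 as closely was not counted, so this count is not read as a trait of the clock genes. Both genes also followed the array range, with r = -0.707, -0.516 and -0.681 for NFIL3 and 0.681, 0.742 and 0.776 for CRY1. What links them to NR1D2 was not tested. NFIL3, a repressor whose gene is bound by REV-ERB proteins, had r = -0.683, -0.53 and -0.799 and rho = -0.753, -0.59 and -0.811 (permutation p = 5e-05, 0.00213 and 1e-05, adjusted over 42 relations 0.00105, 0.0133 and 0.00042). Without the 2 farthest arrays r was -0.777, -0.507 and -0.805, and within a replicate number it lay between -0.92 and -0.152. CRY1, a repressor of the clock, had r = 0.636, 0.541 and 0.632 and rho = 0.614, 0.62 and 0.613 (adjusted permutation p = 0.0022, 0.0133 and 0.0022), r = 0.583, 0.518 and 0.493 without the farthest arrays and 0.269 to 0.87 within a replicate number. After the array range was removed from both genes, r was -0.22, -0.232 and -0.575 for NFIL3 and 0.146, -0.117 and 0.00248 for CRY1. By r, PER2 also passed in the fenbuconazole and imazalil sets (adjusted permutation p = 0.0133 and 0.0343). CLOCK passed in the imazalil set (0.019) and NPAS2 in the 2,4-D set (0.0393). By rho only PER2 in the fenbuconazole set did so among these (adjusted permutation p = 0.0122).

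Of the genes on which the receptors act, single ones passed the adjusted threshold at 10 µM with imazalil and 0 with fenbuconazole or 2,4-D. The target genes named below moved the same way with fenbuconazole at 10 µM, short of the threshold. Their log2 changes were 0.21 for ALAS1, 0.22 for SULT2A1, 0.24 for GSTA1, 0.26 for CYP24A1, 0.41 for SLC51B and -0.17 for SGK1. With 2,4-D they were 0.03, 0.14, 0.05, -0.04, -0.38 and 0.07. Lists of known targets are described by counts, since they were chosen with earlier results known. Of 11 measured targets of the drug receptors PXR and CAR, 2 passed with imazalil at 10 µM, both upward. With fenbuconazole or 2,4-D 0 passed (limma). At an unadjusted p under 0.05 there were 6 with imazalil, 4 with fenbuconazole and 1 with 2,4-D. Over all genes these shares were 5.97%, 4.74% and 3.96%, and 0.106%, 0.0152% and 0% passed the adjusted threshold. The list's median log2 change was 0.25 with imazalil, 0.12 with fenbuconazole and 0.07 with 2,4-D, beside -0.0043, -0.00089 and 0.00077 for all genes. These comparisons share their DMSO arrays, and against the 3 lowest doses of each compound the median was 0.09, 0.08 and -0.0021.

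ALAS1, which starts haem synthesis, read 7.36, 7.36 and 7.33 in DMSO cells and 7.85, 7.90 and 7.86 at 10 µM imazalil. It rose 1.43-fold (log2 0.52 ± 0.09, adjusted p = 0.00784). SULT2A1, a bile acid and steroid sulfotransferase, read 7.63, 7.43 and 7.32 in DMSO cells and 7.98, 7.96 and 7.84 at 10 µM, a rise of 0.47 ± 0.09 on the log2 scale (adjusted p = 0.0256). The groups did not overlap for either gene. By slope 0 of the 11 targets passed with imazalil (limma). At an unadjusted p under 0.05 there were 3, against 7.36% of all genes. The slope was 0.09 ± 0.02 for ALAS1 (adjusted p = 0.136) and 0.07 ± 0.02 for SULT2A1 (adjusted p = 0.432). Leaving out replicate 1, 2 or 3 took both calls against DMSO above 0.05, to an adjusted p of up to 0.625 and 0.837. SULT2A1 also lost its call without DMSO replicate 2 or 3. Over the 12 alternatives the log2 change against DMSO lay between 0.48 and 0.53 for ALAS1 and between 0.40 and 0.55 for SULT2A1. Against the 3 lowest imazalil doses ALAS1 (0.50 ± 0.07, adjusted p = 0.000859) and SULT2A1 (0.43 ± 0.07, adjusted p = 0.0047) passed as well (limma). These calls held under 10 and 9 of 12 alternatives, of which those without a DMSO array change only the estimate of the spread here. They were lost without replicate 2 or 3, and that of SULT2A1 also without replicate 1. GSTA1, a glutathione transferase, passed only in this comparison (0.50 ± 0.11, adjusted p = 0.0449). Its call was lost under 8 of 12 alternatives, among them each omitted replicate.

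Of 3 vitamin D receptor targets, CYP24A1, the vitamin D hydroxylase, rose with imazalil. It read 6.79, 6.83 and 7.04 in DMSO cells and 7.47, 7.53 and 7.73 at 10 µM, or 1.62-fold (log2 0.69 ± 0.11, adjusted p = 0.00277), and its slope was 0.16 ± 0.02 (adjusted p = 0.00175). The arrays at 10 µM were all above the controls. The call against DMSO was lost without replicate 1 or 2 (adjusted p up to 0.42), as was that of the slope (up to 0.221). Over the 12 alternatives the log2 change against DMSO lay between 0.65 and 0.77. The call against the 3 lowest doses (0.75 ± 0.09) passed under all 12 alternatives run. Those without a DMSO array touch this comparison only through the estimate of the spread. VDR itself gave -0.02 with imazalil and lay below the array median on every DMSO array. Of the 3 targets, 2 lay above 0 with imazalil at 10 µM, and the lowest was at -0.17. Only 1 had an unadjusted p under 0.05 (limma), against 5.97% of all genes.

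Of 8 glucocorticoid receptor targets, SGK1, a kinase of ion transport, fell with imazalil. It read 8.90, 8.98 and 8.95 in DMSO cells and 8.60, 8.47 and 8.47 at 10 µM, a log2 change of -0.43 ± 0.06 (adjusted p = 0.000394), while NR3C1 gave 0.02. This call was lost without replicate 1, 2 or 3 (adjusted p up to 0.439), though over the 12 alternatives the change lay between -0.49 and -0.39. The call against the 3 lowest doses (-0.46 ± 0.05) passed under all 12 alternatives run. Those without a DMSO array touch this comparison only through the estimate of the spread. Of the 8 targets, 2 lay above 0 with imazalil at 10 µM, with a median of -0.07. The lowest value, -0.50, was that of another gene, short of the threshold. At an unadjusted p under 0.05 there were 2 (limma), against 5.97% of all genes. Of 8 targets of the bile acid receptor FXR, SLC51B, a subunit of the bile salt exporter, rose with imazalil dose (slope 0.19 ± 0.04, adjusted p = 0.0125) and against the 3 lowest doses (0.80 ± 0.13, adjusted p = 0.00264). Against DMSO it did not pass, reading 4.92, 4.83 and 4.85 in DMSO cells and 5.49, 5.83 and 5.58 at 10 µM (0.77 ± 0.16, adjusted p = 0.0519). Without replicate 2 or 3 both calls were lost, and the slope also without replicate 1. The FXR list was split at 10 µM imazalil, with 4 of 8 above 0, a median of 0.0045 and a lowest value of -0.24.

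The lists for LXR (9 genes measured), PPARA (10), retinoic acid receptors (6), thyroid hormone receptors (5), oestrogen receptors (4), HNF4A (8), the clock (14) and the coregulators (13) held 0 genes past the adjusted threshold with any compound at 10 µM, by slope or against the lowest doses (limma). At 10 µM and an unadjusted p under 0.05 they held between 0 and 3 genes each. Over all genes the share was 4.74% with fenbuconazole, 5.97% with imazalil and 3.96% with 2,4-D. The coregulators, which pass the signal of the receptors to chromatin, had a median log2 change of -0.01 with fenbuconazole, 0.07 with imazalil and 0.01 with 2,4-D.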

How the data were processed

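Total RNA of HepG2 cells was labelled for 3' expression and hybridised to HT HG-U133+ PM arrays (Affymetrix). Values deposited by the authors are on a log2 scale, one per probe set, and each compound's arrays were normalised apart from the others. RMA and Partek are named in the submitters' processing notes without versions. Sets were compared after centring on their own DMSO columns. These are the same arrays, so their error cancels only as far as the copies agree. The copies were not identical. NR1D2, for example, read 5.27, 4.15 and 4.82 in the fenbuconazole set and 5.01, 4.05 and 4.32 in the imazalil set. Error that differs between the copies is not part of the SE or p values of these comparisons. The table had 90 columns from 84 different arrays.

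Probe sets with 1 symbol (40914 of 54715) were kept. Members, lists, tests and the naming rule were chosen with earlier results of these data known. Named were members with an unadjusted p under 0.05 at 10 µM (at most 8 per compound), the 3 with the smallest slope p per compound, members past the threshold, 12 members chosen by subject, and list genes past the threshold. NR4A1 at 0.001 µM, NR1D2 at 0.1 µM, the array spread and the members named for levels, overlaps or differences were chosen after their values were seen.

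Tests used lmFit and eBayes of limma 3.58.1 in R 4.3.3 on all arrays of a set, without a replicate block, two-sided, with Benjamini-Hochberg adjustment over 19774 genes per contrast and a threshold of 0.05. Scripts were tested on simulated data. Permutation tests were two-sided with 100000 resamples (numpy 2.4.6). Alternatives changed the scaling, the filter on dim genes, the probe set rule, the variance model, a spread covariate, a replicate block and the arrays included. The number of arrays, 3 per group, limits the precision.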

Additional observations from a re-analysis of the deposited data

How the results depend on the processing

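The count of members past the threshold was 0 for each planned comparison and compound under joint quantile normalisation, without dim genes, with the mean of the probe sets, with the array spread as a covariate, with a trended and robust eBayes, and without each replicate or DMSO replicate in turn. The smallest adjusted p of a member in the planned comparisons was 0.0615 (NR2F1 slope with imazalil, spread as covariate). The count of members above the array median changed by less than 1.5 times under its alternatives. With the mean of the probe sets the RARG difference of imazalil minus fenbuconazole turned to 0.0096, and the ESRRA change with imazalil at 10 µM was 0.19. Without DMSO replicate 2 the latter was 0.30. The NR1D2 difference at 0.1 µM, with alternatives chosen after seeing the data, had an adjusted p of 0.0482 without DMSO replicate 1, 0.0364 without DMSO replicate 3 and 0.0195 without replicate 1, and of 0.25 and 0.286 without replicate 2 and 3. Members at an unadjusted p under 0.05 at 10 µM with imazalil numbered 9 without DMSO replicate 1 and 1 without DMSO replicate 2, against 3.

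Same-numbered arrays did not deviate together in every pair (r between 10 µM and DMSO of -0.15 to 0.41), so the numbers were not taken as a pairing. With the replicate block 0 members passed at 10 µM or in any other planned comparison, and the NR1D2 difference of -1.06 at 0.1 µM had an adjusted p of 0.0412. Arrays correlated best with their own number in 18, 20 and 23 of 30 cases. The mean r was 0.04 within a number and -0.02 between numbers in each set. The main fit, without a block, leaves this structure out. Over all genes, calls fell when a replicate number was left out, from 27 to between 0 and 13 for the imazalil slope, from 50 to between 10 and 19 for imazalil minus 2,4-D at 10 µM, and from 22 to between 3 and 5 for imazalil against DMSO over all doses, in fits that also had fewer arrays per group. The trended and robust fit gave 37 in the last of these, and 27 in place of 7 in the F test. The block moved 2 of 15 such counts by over 1.5 times.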
